A study of Mus musculus with 18 samples.

Results

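CD103+ single-positive dendritic cells (DCs) of the small intestinal lamina propria were compared with CD11b+ single-positive DCs of the same tissue. The libraries were taken by their labels for tissue and subset. They are 6 of the 18 RNA-seq libraries of the series, 3 for each subset, and 17074 of the 54232 genes in the count table passed the low-count filter. All 18 libraries come from C57BL/6J mice labelled CD11a KO. CD11a, encoded by Itgal, pairs with CD18 to form the leukocyte adhesion receptor LFA-1. The remaining 12 libraries are double-positive DCs (CD11b+ and CD103+) of the lamina propria and the same 3 subsets of the intestinal lymph nodes. Libraries of wild-type mice were not analysed here, so what follows describes the subsets in knockout mice and not an effect of the knockout. Age, infection status and whether the replicates came from separate mice are not given for these samples. The p-values therefore measure the spread between these libraries, which may be technical. Per the protocol, Peyer's patches were removed and CD11b+ DCs with or without CD103 were sorted as live CD45+ CD64- cells with high MHC class II and CD11c, while the gate for CD103+ single-positive cells is not spelled out.

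Conventional DCs take up antigen in tissue, carry it to lymph nodes and present it to T cells. They fall into a pair of lineages. The cDC1 lineage depends on the transcription factors Irf8 and Batf3, carries Xcr1 and Clec9a, and is known for presenting the antigens of dead cells to CD8+ T cells. The cDC2 lineage carries Sirpa, depends in part on Irf4, and is known for the priming of CD4+ T cells. In the small intestine CD103+ CD11b- DCs are usually placed with cDC1, while CD11b+ DCs are placed with cDC2, and the gate for CD11b+ CD103- cells can also hold cells of monocyte or macrophage origin.

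Levels are given as CPM, the counts of a gene scaled to TMM-normalised libraries of 1000000 counts, in the order of replicates 1, 2 and 3. The 6 libraries held between 23999555 and 46901985 counts on genes. Itgal, the gene of CD11a, gave 20.4, 25.3 and 21.8 CPM in the CD11b+ libraries and 25.0, 26.6 and 21.4 CPM in the CD103+ libraries. Transcripts of the targeted gene were thus counted in all 6 libraries, and without wild-type libraries they do not check the genotype. The genes of the sorted proteins followed the labels. Itgam (CD11b) stood at 55.3, 60.5 and 68.1 CPM in CD11b+ DCs and at 0.601, 0.839 and 1.26 CPM in CD103+ DCs. Itgae (CD103) stood at 1333, 1238 and 1440 CPM in CD103+ DCs and at 121, 92.1 and 293 CPM in CD11b+ DCs, with a log2 fold change of 2.99 (3.65 without CD11b+ replicate 3). The sort used both proteins, and their difference is no finding. Itgax (CD11c), H2-Aa and H2-Ab1 were not called between the subsets.

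Markers of other cell types were unequal between the subsets. Markers of macrophages summed to 2116 to 4032 CPM in the CD11b+ libraries and 665 to 723 CPM in the CD103+ libraries, with 12 of 14 markers higher in CD11b+ DCs. Sums weigh abundant markers most, and the median log2 fold change of these markers was -5.33. Cd5l had no count in any CD103+ library but was not called (log2 fold change -3.14, and -2.27 without CD11b+ replicate 1). Fcgr1, which encodes the CD64 used to exclude macrophages, was at 10.4, 11.1 and 7.90 CPM in CD11b+ DCs and at 0.389, 0.258 and 0.122 CPM in CD103+ DCs. The complement genes C1qa, C1qb and C1qc together reached 680, 478 and 1194 CPM in CD11b+ DCs, 12.5, 8.90 and 23.1 CPM in CD103+ DCs and 77.6 to 91.8 CPM in double-positive DCs. Plasma cell markers summed to 9833 to 14218 against 2549 to 4230 CPM, and 7 of 10 were higher in CD11b+ DCs, among them Igha at 4391, 6866 and 4778 against 1140, 1721 and 886 CPM. Markers of monocytes and neutrophils summed to 1209 to 1360 against 263 to 311 CPM (9 of 9 tested higher in CD11b+ DCs), those of the epithelium to 1029 to 2204 against 96.6 to 178 CPM (6 of 11), and those of innate lymphoid and NK cells to 200 to 270 against 25.9 to 32.2 CPM (8 of 12, and 1 higher in CD103+ DCs). T cell markers summed to 26.2 to 61.6 against 6.77 to 16 CPM, with 2 of 14 called higher in CD11b+ DCs, a share of 14.3% beside 10.6% of all genes. That count was 4 without CD103+ replicate 1 and 1 without CD11b+ replicate 1 or with the 6 libraries alone. Of the monocyte and neutrophil markers, 7 of 9 were higher in CD11b+ DCs without CD11b+ replicate 3 or CD103+ replicate 2. With the replicate block these were 7 of 8 tested. With that block 5 of 9 tested innate lymphoid and NK markers were higher in CD11b+ DCs. The lone marker higher in CD103+ DCs was lost with the block, DESeq2 size factors, total counts, thinned libraries or the 6 libraries alone. It was also lost without CD11b+ replicate 2 or 3 or CD103+ replicate 1 or 3. In the epithelial list most of the sum was Lyz1, Epcam and Cdh1, and phagocytes or DCs can also express these 3 genes. B cell markers (47.1 to 58.8 against 28.9 to 41.0 CPM) had 5 of 9 higher and 1 lower in CD11b+ DCs, plasmacytoid DC markers (296 to 334 against 252 to 266 CPM) 5 of 8 higher and 1 lower, and stromal and endothelial markers (97.2 to 109 against 8.77 to 13.1 CPM) 2 of 12 higher (4 with DESeq2). The stromal and endothelial share was 16.7%, beside 10.6% of all genes. With the 6 libraries alone 3 B cell and 3 epithelial markers were higher in CD11b+ DCs. The plasmacytoid DC marker on the CD103+ side was lost with the block and without CD11b+ replicate 2 or CD103+ replicate 3, and 2 B cell markers were on that side without CD11b+ replicate 1. Genes induced by tissue digestion also moved with the subset, at 20991 to 23026 against 11299 to 11998 CPM, with 10 of 20 higher in CD11b+ DCs (with the block 2 others were higher in CD103+ DCs), including Socs3 (log2 fold change -5.12), Atf3 (-2.67) and Nr4a1 (-2.01). CD11b+ replicate 3 held the highest macrophage and epithelial sums. The part of these cells in the results that follow was not tested. In bulk samples fewer cells of a type and less RNA per cell cannot be told apart.

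**Figure D1:**
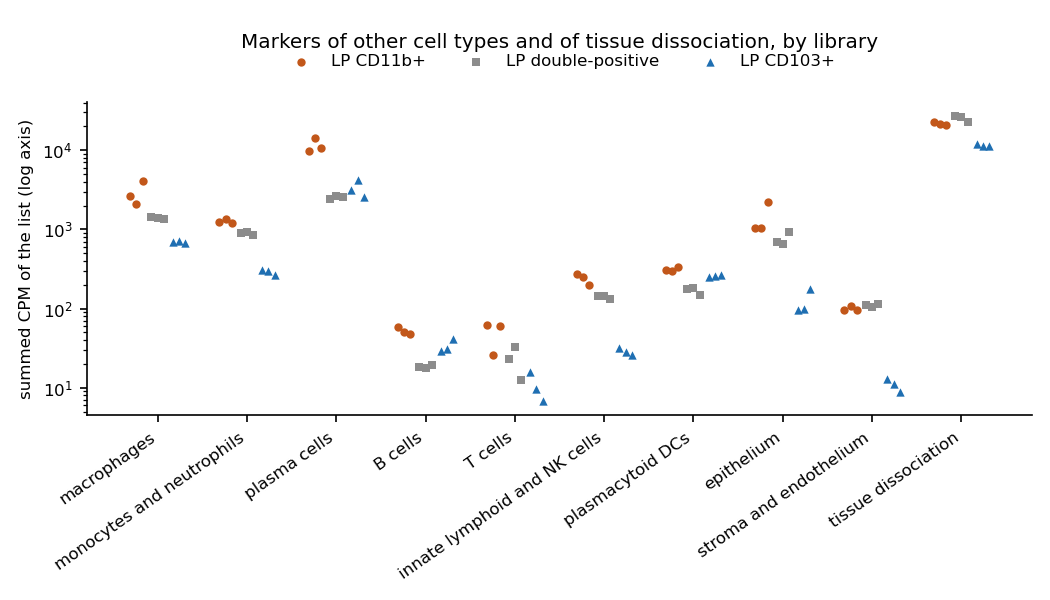
Summed CPM (log axis) of marker lists for other cell types and for tissue dissociation in each of the 9 lamina propria libraries, with a point per library. The CD11b+ libraries (circles) lie above the CD103+ libraries (triangles) for every list, and CD11b+ replicate 3 is the highest for macrophages (4032 CPM) and epithelium (2204 CPM).

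A gene was called when its adjusted p (edgeR quasi-likelihood test, Benjamini-Hochberg) was under 0.01 and its fold change over 2. By this rule 2684 genes differed between the subsets, 15.7% of those tested. Of these, 866 (5.07% of the genes tested) were higher in CD103+ DCs and 1818 (10.6%) were higher in CD11b+ DCs. Large differences leaned further to the CD11b+ side, as 585 genes had a fitted fold over 16 in favour of CD11b+ DCs and 125 in favour of CD103+ DCs. Fitted folds of genes without a count in a subset depend on the prior count. In 2662 of the called genes the 3 libraries of a subset did not overlap with the 3 of the other, which also held for 47.3% of all genes tested. The median log2 fold change over all genes was -0.043, where a positive value means higher in CD103+ DCs throughout. Without CD11b+ replicate 3, 851 genes were higher in CD103+ DCs and 1647 in CD11b+ DCs, and 2341 of the genes were called in both fits. Of the 1818 genes higher in CD11b+ DCs, 102 had no count in any CD103+ library, and 17 of the 866 genes had none in any CD11b+ library.

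**Figure D2:**
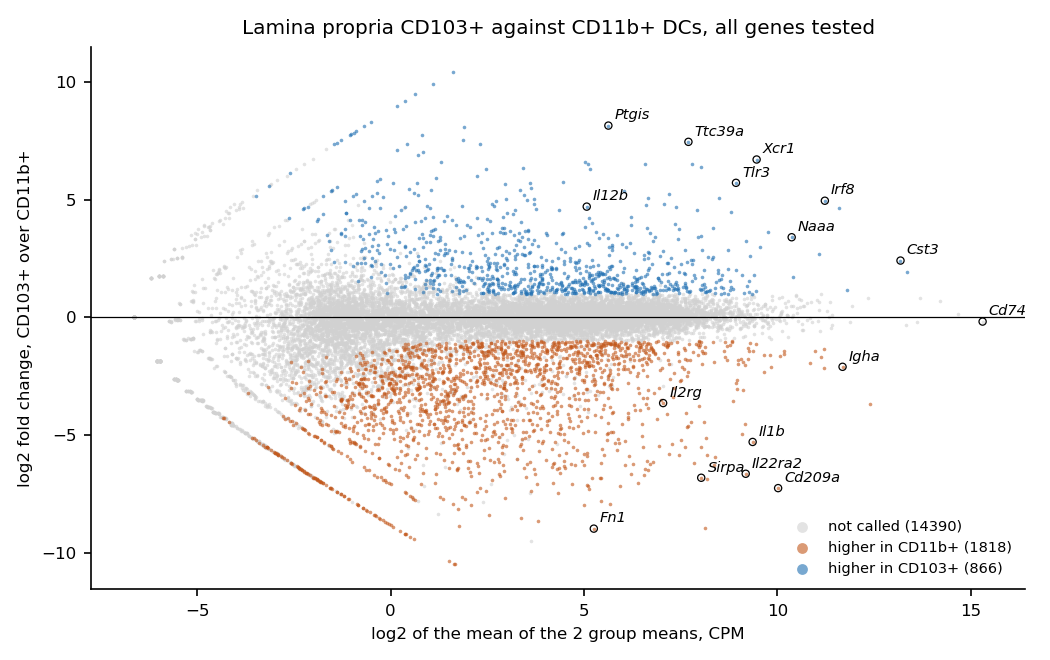
Log2 fold change of CD103+ over CD11b+ DCs against the log2 mean level (CPM) for the 17074 genes tested, with a point per gene coloured by call. The 866 genes higher in CD103+ DCs and the 1818 higher in CD11b+ DCs span all levels above the lowest, and Cd74, at the far right, lies near 0.

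The cDC1 genes were higher in CD103+ DCs almost without exception. Of 20 markers of this lineage, 19 were called higher in CD103+ DCs and none higher in CD11b+ DCs (none at an unadjusted p under 0.05 and none with DESeq2), with a median log2 fold change of 4.44. The members of this and all other lists were chosen with earlier results of these data known. Such counts therefore describe the listed genes and are no test of the lineage. Irf8, the transcription factor on which the lineage rests, was counted at 147, 148 and 158 CPM in CD11b+ DCs and at 4441, 4969 and 4540 CPM in CD103+ DCs. The difference was 4.95 ± 0.10 on the log2 scale (SE, adjusted p = 1.5e-14, edgeR), which is 30.8-fold. Xcr1, a chemokine receptor specific to this lineage, rose from 15.8, 12.8 and 11.7 CPM to 1410, 1399 and 1391 CPM, a log2 fold change of 6.70 ± 0.18. Clec9a, a receptor for exposed actin of dead cells, was at 12.2, 9.77 and 5.69 CPM against 262, 216 and 297 CPM. In these genes every CD103+ library lay above every CD11b+ library, and the CD11b+ replicates were least alike for Clec9a.

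The adhesion molecule Cadm1 differed by 6.37 ± 0.25 on the log2 scale (5.10, 4.65 and 8.94 against 504, 521 and 535 CPM). The lysosomal enzymes Naaa, which hydrolyses N-acylethanolamines, and Ppt1, a palmitoyl-protein thioesterase, were 10.6-fold and 25.3-fold higher in CD103+ DCs. Ppt1 reached 5914, 5662 and 6348 CPM there. Cd8a (log2 fold change 5.06), the endocytic receptor Ly75 (4.28), the inhibitory receptor Btla (2.84) and the scavenger receptor Cd36 (3.81) were also higher. Wdfy4, which is required for cross-presentation by cDC1, differed less (1.49 ± 0.14). The exception among the 20 was Batf3, at 112, 125 and 112 CPM in CD11b+ DCs and 143, 156 and 145 CPM in CD103+ DCs (log2 fold change 0.35 ± 0.10, adjusted p = 0.011).

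**Figure D3:**
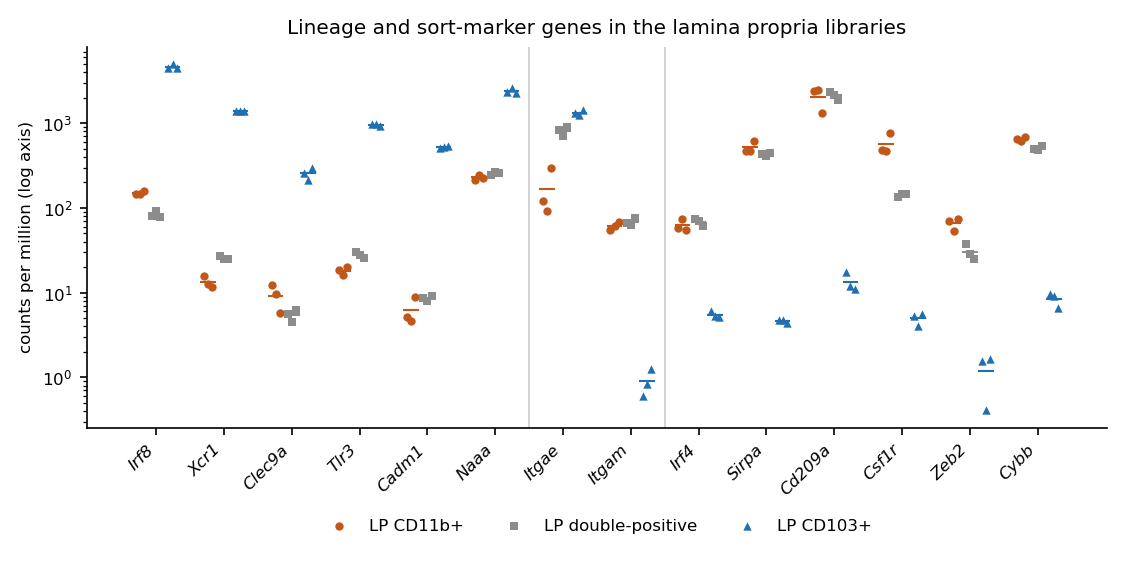
CPM (log axis) of 14 genes in the 9 lamina propria libraries, with a point per library and a bar at the group mean, for 6 cDC1 genes, the genes of the sorted integrins CD103 and CD11b, and 6 genes of cDC2 or myeloid cells. CD103+ libraries (triangles) stand apart from CD11b+ libraries (circles) in all 14, and for Sirpa and Cd209a the double-positive libraries (squares) lie beside the CD11b+ libraries.

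The cDC2 genes lay on the other side. Of 24 markers, 21 were higher in CD11b+ DCs and 2 in CD103+ DCs, with a median of -5.18. The lists overlap, as Cx3cr1 was also among the macrophage markers and Ccr2 among those of monocytes and neutrophils. Sirpa, an inhibitory receptor, stood at 474, 466 and 619 CPM in CD11b+ DCs and at 4.74, 4.73 and 4.41 CPM in CD103+ DCs (log2 fold change -6.81 ± 0.19, adjusted p = 1.4e-13). Cd209a, a C-type lectin related to DC-SIGN, stood at 2413, 2450 and 1329 CPM against 17.4, 12.1 and 11.1 CPM. Csf1r, the receptor for macrophage colony-stimulating factor, was at 481, 474 and 760 CPM against 5.27, 4.00 and 5.63 CPM. None of the CD103+ libraries overlapped with a CD11b+ library in these genes. Cx3cr1, Ms4a4c, Cd300a, Ltb and Mgl2 were higher in CD11b+ DCs by between 4.43 and 6.11 on the log2 scale. Cd4 (log2 fold change -3.01) and Ccr2 (-2.48) differed less. The 2 markers on the opposite side were Esam (6.89, 6.41 and 13.6 against 19.7, 20.7 and 40.6 CPM) and Clec12a (109, 92.2 and 56.6 against 203, 185 and 196 CPM). Clec12a was no longer called without CD11b+ replicate 3 (log2 fold change 0.95 against 1.18), and Esam was not called when the 6 libraries were fitted alone (adjusted p = 0.014). Mgl2 was at -5.02 without CD103+ replicate 3. In the double-positive libraries, where the C1q sum was 77.6 to 91.8 CPM, the mean of Sirpa was 430 CPM and that of Cd209a 2131 CPM, while Csf1r was at 142 CPM and Cx3cr1 at 6.01 CPM.

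Promoters were read for genes of both sides because members of each lineage moved together. They are from RefSeq on GRCm38.p6, run from 250 bases before to 50 bases after the annotated start, and are written 5′ to 3′ on the strand of the gene. Of the called genes, 1947 had an entry. Both strands were searched for GAAANNGAA (a pair of interferon-response half-sites, bound by Irf factors), GGAANNGAA (a composite core for Ets factors such as PU.1 with Irf8 or Irf4), TGANTCA (AP-1) and GAGGAAGT (PU.1), and matches are in capitals. The shown sequences are the promoters of Irf8, the start that lies furthest upstream (chr8:120736108-120736407, plus strand), of Xcr1 (chr9:123861980-123862279, minus strand) and of Tlr3 (chr8:45410331-45410630, minus strand), which were higher in CD103+ DCs, and of Cd209a (chr8:3748935-3749234, minus strand) and Cybb (chrX:9469275-9469574, minus strand), which were higher in CD11b+ DCs.
Irf8: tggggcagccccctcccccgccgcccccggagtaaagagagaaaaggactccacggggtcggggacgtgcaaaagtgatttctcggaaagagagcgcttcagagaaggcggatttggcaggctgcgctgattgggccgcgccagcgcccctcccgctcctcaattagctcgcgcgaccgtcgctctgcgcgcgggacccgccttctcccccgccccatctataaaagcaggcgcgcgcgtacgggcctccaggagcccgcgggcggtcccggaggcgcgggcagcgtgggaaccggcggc
Xcr1: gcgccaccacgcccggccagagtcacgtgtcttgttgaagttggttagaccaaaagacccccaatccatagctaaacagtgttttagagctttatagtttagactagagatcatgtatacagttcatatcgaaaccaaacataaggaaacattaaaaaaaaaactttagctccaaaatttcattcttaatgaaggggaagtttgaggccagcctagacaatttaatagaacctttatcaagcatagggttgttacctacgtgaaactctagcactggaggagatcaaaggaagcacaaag
Tlr3: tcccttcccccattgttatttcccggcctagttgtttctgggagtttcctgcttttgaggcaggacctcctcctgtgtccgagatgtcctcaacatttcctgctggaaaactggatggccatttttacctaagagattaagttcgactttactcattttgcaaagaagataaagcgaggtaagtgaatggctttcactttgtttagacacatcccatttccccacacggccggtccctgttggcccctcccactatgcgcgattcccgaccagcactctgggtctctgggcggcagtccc
Cd209a: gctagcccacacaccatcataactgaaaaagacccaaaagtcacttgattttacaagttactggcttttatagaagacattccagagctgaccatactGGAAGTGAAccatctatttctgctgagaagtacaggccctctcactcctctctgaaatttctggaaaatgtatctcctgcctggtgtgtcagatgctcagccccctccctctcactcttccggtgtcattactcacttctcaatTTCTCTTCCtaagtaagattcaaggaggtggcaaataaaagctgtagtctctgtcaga
Cybb: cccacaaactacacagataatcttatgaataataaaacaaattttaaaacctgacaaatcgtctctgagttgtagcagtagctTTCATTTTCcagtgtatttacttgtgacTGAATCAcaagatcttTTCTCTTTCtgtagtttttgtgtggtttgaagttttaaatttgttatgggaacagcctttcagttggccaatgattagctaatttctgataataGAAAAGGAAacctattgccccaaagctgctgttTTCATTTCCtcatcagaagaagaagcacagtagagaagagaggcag

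The promoters of Irf8, Xcr1 and Tlr3 held none of these letters, that of Cd209a held 2 matches, both of the composite core, and that of Cybb held 5. Over all 32851 promoters, GAAANNGAA was found in 8.56%, and it was found in 8.10% of the promoters of genes higher in CD103+ DCs and 10.7% of those of genes higher in CD11b+ DCs. The composite core was found in 8.24% of all, 7.24% and 8.64%, the AP-1 letters in 7.81%, 6.01% and 7.95%, and the PU.1 letters in 3.20%, 3.93% and 5.13%. In the promoters of genes tested and not called, the shares of the 4 motifs were 7.09%, 7.52%, 5.15% and 3.09%, in the same order. Matches of different motifs can overlap. These shares are descriptions of letters in a short window and were not tested.

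Among 32 transcription factors of DC lineages, 14 were higher in CD11b+ DCs and 5 in CD103+ DCs, with a median of -0.53. Over all genes called, 67.7% were higher in CD11b+ DCs. Irf4 was at 58.5, 74.7 and 54.9 CPM in CD11b+ DCs and 6.05, 5.29 and 5.22 CPM in CD103+ DCs (log2 fold change -3.51 ± 0.18). Zeb2, which antagonises the cDC1 fate, was at 71.1, 53.5 and 74.0 CPM against 1.56, 0.409 and 1.63 CPM (-5.89 ± 0.33). Klf4 (-2.49), Bhlhe40 (-3.54), Cebpa (-3.13) and Cebpb (-3.77) were also higher in CD11b+ DCs. Id2, an inhibitor of E proteins needed for cDC1, was at 266, 221 and 412 against 1072, 1074 and 986 CPM, and Bcl6 (1.31) and Zfp366 (1.69) were also higher in CD103+ DCs. Zbtb46, which marks conventional DCs of both lineages, was at 193, 213 and 186 CPM against 207, 214 and 218 CPM, and Spi1, which encodes PU.1, had a log2 fold change of -0.30 ± 0.09. Neither was called.

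Receptors for microbial ligands were found on both sides. Of 20 toll-like receptors and adaptors, 4 were higher in CD103+ DCs and 8 in CD11b+ DCs. Tlr3, the endosomal receptor for double-stranded RNA, stood at 18.3, 16.2 and 20.3 CPM in CD11b+ DCs and at 971, 974 and 930 CPM in CD103+ DCs (log2 fold change 5.71 ± 0.16, adjusted p = 1.4e-13). Tlr12 and Tlr11, which recognise profilin of Toxoplasma, stood at 808, 886 and 873 CPM and at 492, 476 and 466 CPM in CD103+ DCs, 22.2-fold and 11-fold above CD11b+ DCs. Per kilobase of exon, the level of Tlr12 in CD103+ DCs was 269 CPM, that of Tlr3 184 CPM and that of Tlr11 146 CPM, while Tlr13 was at 21.3 CPM. The fourth gene was Cd180 (1.38). On the CD11b+ side were Tlr5 for flagellin (9.41, 8.09 and 14.0 against 0.141, 0.344 and 0.0816 CPM), Tlr4 with Cd14 for lipopolysaccharide (log2 fold change -4.0 and -3.06), Tlr1 and Tlr2 for lipopeptides (-2.08 and -2.68), and Tlr7 and Tlr8 for single-stranded RNA (-4.42 and -5.00). Tlr4, Tlr5, Tlr7 and Tlr8 were low, with under 1 CPM in every CD103+ library, and their values moved with single libraries. Tlr4 was at -3.85 and not called without CD103+ replicate 2 and at -5.05 without CD103+ replicate 1, Tlr5 at -6.48 without CD103+ replicate 2, Tlr7 at -3.81 without CD11b+ replicate 3 and -3.82 without CD103+ replicate 2, and Tlr8 at -4.35 without CD11b+ replicate 3 and -6.48 without CD103+ replicate 3. Cd14 was at -3.69 without CD103+ replicate 3. Unc93b1, which carries the endosomal receptors to their compartment, was not called at 1442, 1436 and 1299 against 1892, 2023 and 1846 CPM.

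C-type lectin and Fc receptors lay mostly on the CD11b+ side. Of 28 lectin receptors, 19 were higher in CD11b+ DCs and 3 in CD103+ DCs (Clec9a, Ly75 and Clec12a), with a median of -4.37. Clec7a, the beta-glucan receptor Dectin-1, was at 435, 325 and 301 CPM against 11.1, 6.32 and 11.7 CPM. Clec4n (Dectin-2) had a log2 fold change of -5.63 and the mannose receptor Mrc1 one of -6.43. Clec4n was at -5.02 without CD103+ replicate 2 and -6.45 without CD103+ replicate 3. Clec4e (Mincle) was at 1.18, 0.988 and 2.72 CPM in CD11b+ DCs and had no count in any CD103+ library. In double-positive DCs the mean of Mrc1 was 1.73 CPM, whereas that of Cd209b was 369 CPM, above its 43.6, 48.8 and 70.3 CPM in CD11b+ DCs. The Clec4a and Cd209 genes are families of close copies, and the split of reads among them is uncertain. Of 11 Fc receptor genes, 6 were higher in CD11b+ DCs and 1, Fcrla, in CD103+ DCs. Fcer1g, the shared signalling chain of activating Fc receptors and of several lectins, stood at 587, 628 and 505 CPM against 11.1, 9.91 and 8.81 CPM (-5.85 ± 0.13, adjusted p = 1.8e-14). Fcgr3 (-5.27), Fcgr2b (-4.52) and Fcgr4 (-3.69) were on the same side, with Fcgr3 at -5.91 without CD103+ replicate 3.

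**Figure D4:**
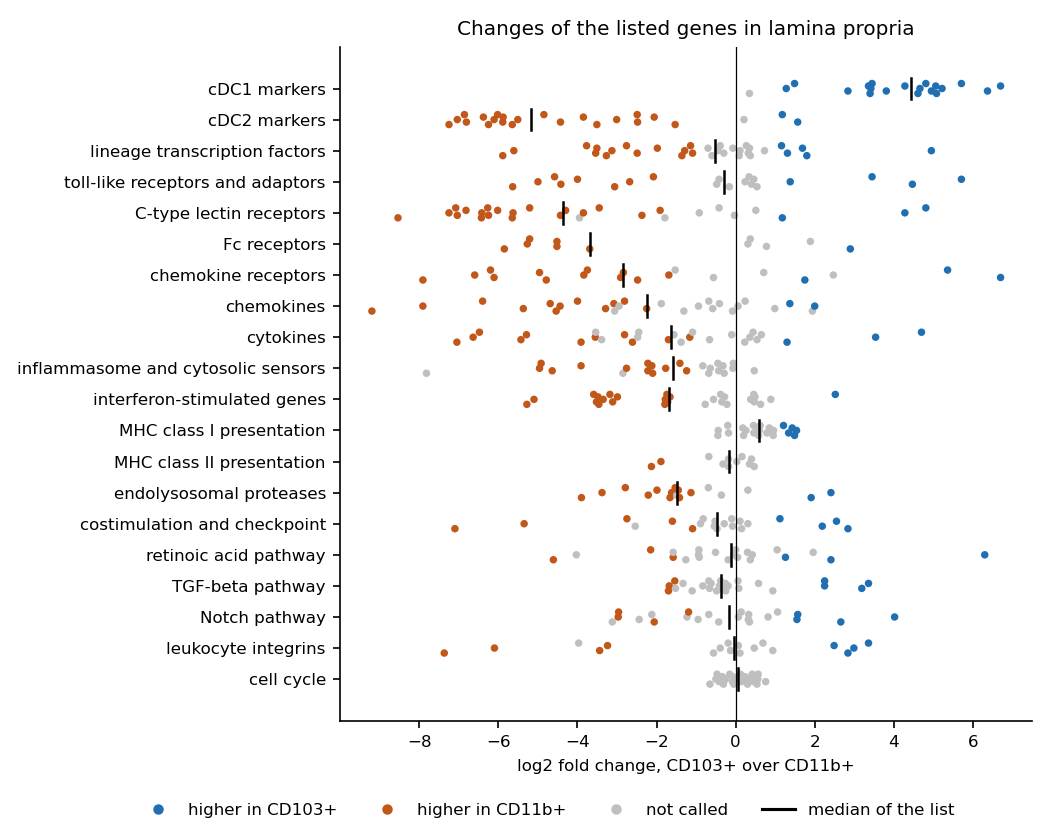
Log2 fold change of CD103+ over CD11b+ DCs for the members of 20 gene lists, with a point per gene coloured by call and a bar at the median of the list. The medians run from 4.44 for cDC1 markers to -5.18 for cDC2 markers, while the cell cycle genes stay within 2-fold and none is called.

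Of 24 inflammasome and cytosolic sensor genes, 12 were higher in CD11b+ DCs and none in CD103+ DCs (none at an unadjusted p under 0.05 and none with DESeq2), with a median of -1.59. Casp1 was at 122, 123 and 129 CPM against 33.1, 30.5 and 23.6 CPM (log2 fold change -2.10 ± 0.10), and Pycard (-1.77), Nlrp3 (-2.12), Nlrc4 (-2.76), Nod1 (-3.91) and Mefv (-4.92) were on the same side. Ddx58, which encodes the RNA sensor RIG-I, was at 40.1, 40.4 and 49.7 CPM against 0.955, 1.61 and 1.55 CPM. Its relative Ifih1 (MDA5) was not called at -0.83 ± 0.10. Of 28 interferon-stimulated genes, 15 were higher in CD11b+ DCs and 1 in CD103+ DCs (median -1.69), and 6 were higher in CD103+ DCs at an unadjusted p under 0.05. Rtp4 (-5.28), Ifit1 (-3.59), Oasl2 (-3.52) and Ifi27l2a (-3.18) were higher in CD11b+ DCs, and Oasl1 (2.52 ± 0.18) was higher in CD103+ DCs. Stat2 and Irf9, which carry the interferon signal to the nucleus, had values of 0.89 ± 0.11 and 0.46 ± 0.09 and were not called. The guanylate-binding protein gene Gbp3 was among the genes of smallest p, at 139, 127 and 134 CPM against 7.89, 7.01 and 5.30 CPM (-4.30 ± 0.12). For 11 of the 12 called cytosolic sensors and 13 of the 15 called interferon-stimulated genes, the mean in double-positive DCs was over 0.5 times that in CD11b+ DCs, beside 61.1% of all genes called higher in CD11b+ DCs.

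Of 22 genes of MHC class I presentation, 5 were higher in CD103+ DCs and none in CD11b+ DCs by edgeR (2 at an unadjusted p under 0.05, none with DESeq2), with a median of 0.59. The share called was 22.7%, and 18.2% for class II, beside 15.7% of all genes. The peptide transporter genes Tap1 (329, 333 and 281 against 897, 960 and 896 CPM) and Tap2 (165, 163 and 166 against 365, 402 and 373 CPM), the immunoproteasome subunit Psmb9 (1.34), Rab43 (1.43) and Wdfy4 were those called. The heavy chains H2-K1 and H2-D1 and B2m were not called, at -0.20, -0.18 and -0.44. Of 11 genes of MHC class II presentation, 9 were not called. Cd74, the invariant chain, was at 43829, 46380 and 38971 CPM against 36085, 39161 and 38987 CPM. The 2 called were H2-DMb2 (934, 857 and 833 against 238, 243 and 227 CPM, log2 fold change -1.89 ± 0.13) and the low H2-Eb2 (-2.13), which was not called when the 6 libraries were fitted alone (adjusted p = 0.013). H2-DMb1, the close relative of H2-DMb2, was at 1135, 1233 and 1009 against 1492, 1620 and 1580 CPM.

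Of 17 endolysosomal genes tested, 11 were higher in CD11b+ DCs and 2 in CD103+ DCs, with a median of -1.49. Ctss, which degrades the invariant chain, was at 1674, 1677 and 1536 CPM against 518, 537 and 490 CPM (log2 fold change -1.66 ± 0.10). Ctsc (-2.79), Ctsd (-3.90), Ctsh (-1.42), Ctsz (-1.62), Lgmn (-2.21) and the thiol reductase Ifi30 (-1.45) were on the same side, and 9 of the 11 had a double-positive mean over 0.5 times that of CD11b+ DCs, beside 61.1% of all genes called higher in CD11b+ DCs. Cst3, which encodes the cysteine protease inhibitor cystatin C, was at 3254, 3279 and 2340 CPM against 15640, 16101 and 15262 CPM (2.41 ± 0.12). Psap, the precursor of the saposins, was at 3841, 5007 and 4326 CPM against 17189, 16335 and 16100 CPM. Per kilobase of exon Cst3 reached 12376 CPM in CD103+ DCs, above Psap at 6028 CPM, Ppt1 at 1626 CPM and Irf8 at 659 CPM. Of 9 genes of the phagocyte oxidase, 2 were higher in CD11b+ DCs and none in CD103+ DCs (none at an unadjusted p under 0.05 and none with DESeq2). The share called was 22.2%, beside 15.7% of all genes. Cybb, the membrane subunit, was at 654, 613 and 688 against 9.62, 9.12 and 6.65 CPM (-6.26 ± 0.23), while Cyba, its partner, was not called at -0.06 ± 0.11.

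Chemokine receptors set the subsets apart in both directions. Of 19 tested, 12 were higher in CD11b+ DCs and 3 in CD103+ DCs. The 3 were Xcr1, Cxcr3, the receptor for interferon-induced chemokines such as Cxcl9, at 3.88, 2.38 and 3.03 against 123, 149 and 112 CPM (5.36 ± 0.25), and Ccr7, which guides DCs to lymph nodes, at 40.7, 25.4 and 64.0 against 171, 117 and 152 CPM (1.75 ± 0.28). On the CD11b+ side, Ccr1 was at 471, 357 and 523 CPM against 6.30, 6.65 and 5.26 CPM, and Ccr6 (-4.96), Cxcr4 (-3.84), Ccrl2 (-3.75) and Ccr2 followed. Ccr2 was variable in CD103+ DCs, at 100, 63.0 and 21.6 CPM, and had 6.64 CPM in double-positive DCs. Ccr9, which guides cells to the small intestine, was not called at 0.71 ± 0.24, and was called at 1.12 without CD11b+ replicate 3. Of 27 chemokines tested, 12 were higher in CD11b+ DCs (7 with the stricter filter, which tested 17) and 2 in CD103+ DCs. Cxcl9 (29.0, 35.6 and 33.7 against 118, 139 and 136 CPM) and Ccl22 (1.37 ± 0.26) were the 2. Ccl6 (-5.37), Ccl9 (-7.91), Ccl3 (-4.69), Ccl4 (-2.25) and Ccl2 (-4.54) were higher in CD11b+ DCs, of which Ccl9 and Ccl6 had means of 2.45 and 32.2 CPM in double-positive DCs.

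Among 28 cytokines and their antagonists, 11 were higher in CD11b+ DCs and 3 in CD103+ DCs. Il12b, the shared subunit of interleukins 12 and 23, was at 2.98, 1.13 and 3.28 CPM in CD11b+ DCs and 62.5, 42.3 and 89.7 CPM in CD103+ DCs (log2 fold change 4.70 ± 0.37). Il15, which sustains CD8+ T cells and NK cells, was at 10.1, 9.11 and 9.25 against 24.8, 21.2 and 24.1 CPM, and the low Lif was the third (3.54 ± 0.55). Il1b was at 1456, 872 and 1521 CPM in CD11b+ DCs against 38.4, 22.1 and 38.3 CPM (-5.29 ± 0.38) and had a mean of 1455 CPM in double-positive DCs. Il22ra2, the soluble antagonist of interleukin 22, was at 910, 629 and 1914 CPM against 17.9, 10.8 and 5.87 CPM, and its level in double-positive DCs was 75.9 CPM. The interleukin 1 antagonist Il1rn (-7.05) had the same pattern, with 20.2 CPM in double-positive DCs. Il18 (-2.61), Il6 (-2.81) and Flt3l (-1.70) were also higher in CD11b+ DCs.

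Costimulatory and maturation genes did not move to a single side. Of 21 costimulatory and checkpoint genes tested, 4 were higher in CD103+ DCs and 5 in CD11b+ DCs (3 of 18 tested with the 6 libraries alone), with a median of -0.47. The share called was 42.9%, beside 15.7% of all genes. Cd86 was at 93.2, 86.1 and 105 against 512, 514 and 646 CPM (2.55 ± 0.14), whereas its relative Cd80 was not called at -0.54 ± 0.18. Btla, Cd200 (2.19) and Havcr2 (1.12), which encodes Tim-3, were higher in CD103+ DCs. Cd274, which encodes PD-L1, was at 76.3, 65.2 and 85.3 against 38.4, 29.5 and 39.2 CPM (log2 fold change -1.09) and lost its call without CD11b+ replicate 3 (-0.99) or CD103+ replicate 2 (-0.96). Tnfsf9 (4-1BB ligand, -2.75) was also higher in CD11b+ DCs. Of 18 maturation genes tested, 5 were higher in CD103+ DCs (Ccr7, Ccl22, Cd200, Cacnb3 and Tnfrsf4) and 3 in CD11b+ DCs (Relb, Socs2 and Anxa3). Their share called was 44.4%. Relb, a member of the NF-kB family, was at 184, 176 and 183 against 79.8, 72.7 and 93.8 CPM. Tnfrsf4 was not called with the replicate block (adjusted p = 0.011), and Socs2 fell short of the fold limit without CD11b+ replicate 3 (-0.86 against -1.23).

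In the retinoic acid pathway, through which intestinal DCs imprint gut homing, 3 of 22 genes tested were higher in CD103+ DCs and 3 in CD11b+ DCs, 27.3% beside 15.7% of all genes. Aldh1a2, the enzyme that makes retinoic acid, was at 96.9, 106 and 101 CPM in CD11b+ DCs and 256, 198 and 274 CPM in CD103+ DCs (1.26 ± 0.19). Cyp26b1, which degrades retinoic acid, was at 1.33, 0.842 and 0.537 against 86.4, 74.7 and 51.6 CPM (6.30 ± 0.52), and Dhrs9 (2.41), a retinol dehydrogenase, was higher too. Rarg (-4.61), Rdh12 (-2.15) and Dhrs3 (-1.58) were on the CD11b+ side. In the TGF-beta pathway 4 of 25 genes were higher in CD103+ DCs (2 with the replicate block and 2 without CD11b+ replicate 2) and 3 in CD11b+ DCs. The share called in that pathway was 28.0%, beside 15.7% of all genes. Itgb8, whose integrin activates TGF-beta, was low at 0.180, 0.146 and 0.569 against 3.15, 1.83 and 4.85 CPM (3.36 ± 0.42, and 4.26 without CD11b+ replicate 3). Acvrl1 (2.25 ± 0.13) rose from 67.0, 70.5 and 52.9 CPM to 311, 306 and 287 CPM, and Nrros (-1.68) and Smad7 (-1.54) were higher in CD11b+ DCs. The other two higher in CD103+ DCs, Lrrc32 and Tgfb3, were low, and neither was called with the replicate block (adjusted p = 0.014 and 0.019). Lrrc32 was at 1.51 without CD103+ replicate 3 and at 2.46 without CD11b+ replicate 1. With 1 library left out it was called only without CD103+ replicate 1 or 2. Tgfb3 was not called without CD11b+ replicate 2 or CD103+ replicate 1, and was at 3.99 against 3.19 without CD11b+ replicate 3. Tgfb1, Tgfbr1 and Tgfbr2 were not called.

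Of 18 leukocyte integrin genes, 4 were higher in each subset, with Itgae and Itgam, the genes of the sorted proteins, among them. The share called was 44.4% with these sort genes counted, beside 15.7% of all genes. Itga1 (2.49) and Itga6 (2.84, and 3.89 without CD11b+ replicate 3) were higher in CD103+ DCs, and Itgb5 (-3.44) and Itga9 (-7.37, and -8.49 without CD103+ replicate 3) in CD11b+ DCs. The beta chain Itgb2, shared by CD11a and CD11b, was not called at 1110, 1124 and 1055 against 1030, 1007 and 963 CPM. Of 22 Notch genes tested, 4 were higher in CD103+ DCs, led by the ligand Jag2 (4.95, 3.37 and 4.55 against 64.0, 73.3 and 72.5 CPM), and 4 in CD11b+ DCs, led by Maml3 (-2.96). The share of Notch genes called was 36.4%, beside 15.7% of all genes. Only 1 of 22 was higher in CD11b+ DCs without CD11b+ replicate 3 or without CD103+ replicate 1. When the 6 libraries were fitted alone it was 2 of 20, while 10.6% of all genes were on that side in the full fit. Of 13 growth factor receptors, 5 (38.5%, beside 10.6% of all genes) were higher in CD11b+ DCs and none in CD103+ DCs by edgeR (4 at an unadjusted p under 0.05, none with DESeq2). These were Csf1r, Csf3r (-7.44), Il6ra (-1.95), Csf2rb (357, 382 and 517 against 154, 125 and 158 CPM) and its copy Csf2rb2. Flt3, the receptor for the main DC growth factor, was at 330, 380 and 343 against 599, 666 and 607 CPM and was not called (0.83 ± 0.08). Of 28 genes of cholesterol and lipid handling, 3 were higher in CD103+ DCs and 8 in CD11b+ DCs, 39.3% beside 15.7% of all genes. The 3 were Cd36, Apol7c (517, 512 and 702 against 3585, 3779 and 3780 CPM) and Lss, of which Lss (1.05) fell to 0.95 and lost its call without CD11b+ replicate 3, and stood at 1.0 and was not called without CD103+ replicate 1 or 2. Without CD11b+ replicate 3, Lpl was at -6.97. Lpl (-7.80), Msr1 (-5.86) and Apoe (-4.52), which macrophages express, were among the 8. Of 24 cell cycle genes none was called by edgeR or DESeq2, 7 were higher in CD103+ DCs and 6 in CD11b+ DCs at an unadjusted p under 0.05, and the median was 0.05.

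The largest differences named genes outside these lists. Ptgis, which encodes prostacyclin synthase, had the largest rise by the naming rule, from 0.431, 0.256 and 0.347 CPM to 85.2, 88.3 and 123 CPM (8.14 ± 0.37, adjusted p = 6.2e-11). Ttc39a was at 2.01, 1.90 and 3.13 against 410, 409 and 421 CPM (7.45 ± 0.27), and the orphan receptor Gpr141b at 5.03, 5.20 and 4.17 against 458, 451 and 403 CPM (6.51 ± 0.16). The lipid phosphatase Plpp1 (6.51), the Wnt receptor Fzd1 (6.50), the receptor Gpr33 (6.60), Esyt3 (6.35, and 8.11 without CD11b+ replicate 3), H2-M5 (6.28), Itm2a (5.76) and Cltrn (5.66) were among the 15 largest rises, as were Xcr1, Cadm1, Cyp26b1 and Tlr3. Agpat3, which makes phosphatidic acid, was at 11.5, 11.5 and 14.2 against 288, 326 and 352 CPM and had a p among the 10 smallest, as had Rtl8c (3.33 ± 0.10).

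Several of the largest falls were in genes whose level was highest in CD11b+ replicate 3. Fn1, fibronectin, was at 27.1, 62.0 and 139 CPM in CD11b+ DCs and 0.141, 0.043 and 0.326 CPM in CD103+ DCs (-8.97 ± 0.82, and -8.16 without that library). Retnla was at 208, 361 and 1110 CPM against 1.77, 0.237 and 1.80 CPM (-8.94, and -7.95 without that library). Retnlg, a neutrophil gene, was at 6.35, 3.66 and 73.5 CPM (-8.66, and -6.15 without it). F13a1, Fcrls, Lpl and Plaur were also highest in this library, and without it their values were between -6.68 and -7.79. Their double-positive means lay between 0.423 and 18.7 CPM. Some also moved with a CD103+ library, as Fn1 was at -8.35 without CD103+ replicate 2 and -9.78 without CD103+ replicate 3, Retnla at -8.29 without CD103+ replicate 2, Retnlg at -7.85 without CD103+ replicate 2 and -12.64 without CD103+ replicate 3, and F13a1 at -10.2 and Fcrls at -8.62 without CD103+ replicate 3. Itga9 (-8.49 without CD103+ replicate 3), Csf3r, Sirpb1c, Ccl9, Il1rl1 (-8.37, and -9.37 without CD103+ replicate 3), Adgre4, Hacd4 and Cd209a made up the 15, of which Hacd4 (21.7, 21.2 and 31.5 CPM in CD11b+ DCs) had a double-positive mean of 20.6 CPM. Il2rg, the common gamma chain of cytokine receptors, fell less but with a small spread, from 260, 240 and 236 CPM in CD11b+ DCs to 20.6, 18.9 and 19.5 CPM in CD103+ DCs (-3.64 ± 0.08, adjusted p = 1.8e-14).

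Double-positive DCs lay nearer to CD11b+ DCs on both sets of genes. On a scale where 0 is the CD11b+ mean and 1 the CD103+ mean, the median position of the 3 double-positive libraries was 0.113, 0.130 and 0.133 over the 866 genes higher in CD103+ DCs. Over the 1818 genes higher in CD11b+ DCs it was 0.193, 0.199 and 0.232. Single genes spread widely, with quartiles of -0.079 and 0.645 for these 1818 genes in replicate 3. This scale covers only the axis between the CD11b+ and CD103+ means. The double-positive mean did not always lie between the others. It was below both in 308 and above both in 24 of the 866 genes. In the 1818 genes it was above both in 542 and below both in 127. Of the 1818 genes, 1110 had a double-positive mean over 0.5 times that of CD11b+ DCs and 365 one under 0.2 times. Of the 12 called macrophage markers, 9 were under 0.2 times, as were 6 of the 7 called plasma cell markers, and of the 21 called cDC2 markers 5 were.

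The same subsets of the lymph nodes gave another comparison of 3 libraries with 3. There 4420 genes were called, 25.9% of those tested, and 1313 of the lamina propria calls went the same way, which is 48.9% of the lamina propria calls and 29.7% of the lymph node calls. Of these, 342 were higher in CD103+ DCs and 971 in CD11b+ DCs. The difference between subsets itself differed between tissues for 4643 genes (27.2%, adjusted p under 0.01 for the interaction), among them 1177 of the 2684 lamina propria calls. The split by direction moved with the scaling. Of the lymph node calls 60.4% were higher in CD11b+ DCs, and 80.5% with total counts, and of the interaction calls 51.4% were negative, and 27.9% with total counts. Sirpa, Cd209a, Csf1r, Cybb and Fcer1g were higher in CD11b+ DCs of both tissues, with lymph node log2 fold changes between -4.04 and -6.60. Several cDC1 genes differed less there. Xcr1 had a log2 fold change of 1.08 in the lymph node, where its mean was 46.2 CPM in CD11b+ and 97.6 CPM in CD103+ DCs. Irf8 had one of 1.99 and Clec9a one of 1.72. Naaa (-0.81) and Ppt1 (-0.01) were not called in the lymph node, and for each of these 5 genes the difference between tissues was called.

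**Figure D5:**
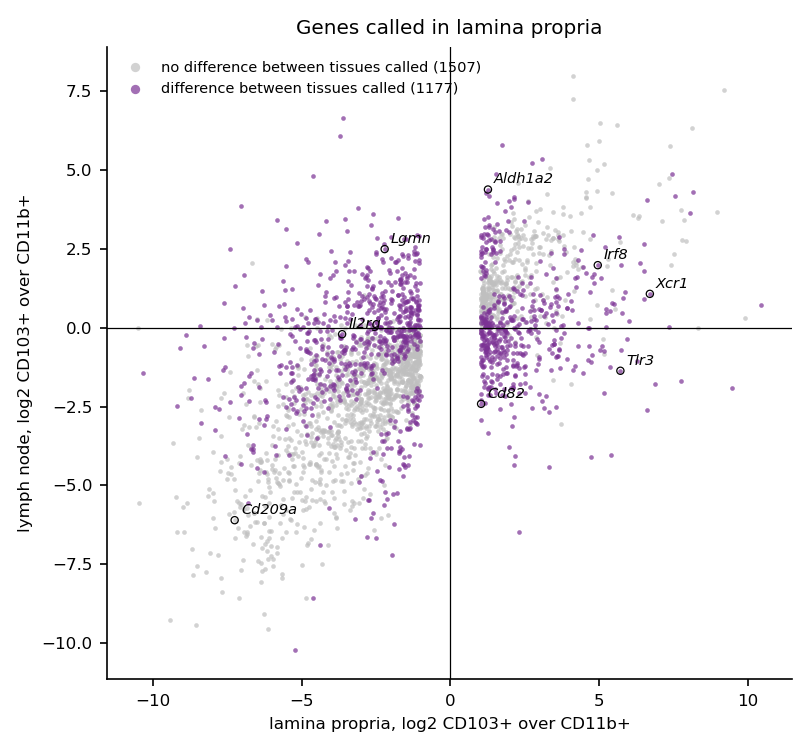
Log2 fold change of CD103+ over CD11b+ DCs in lamina propria (horizontal axis) and in lymph node (vertical axis) for the 2684 genes called in lamina propria, with a point per gene. The 1177 coloured points are genes whose difference between subsets differed between tissues, and Tlr3, Cd82 and Lgmn lie in quadrants of opposite sign.

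In 170 genes the subsets differed in opposite directions in the 2 tissues, 74 of them higher in CD103+ DCs in lamina propria and 96 higher in CD11b+ DCs there. The interaction was called in all 170, which opposite calls in the same fit make nearly certain. Wdfy4 was higher in CD103+ DCs in lamina propria (1.49) and lower in them in the lymph node (-1.95). Cxcr3 was at 5.36 against -1.23, and Csf2rb at -1.52 against 1.75. Relb changed from -1.14 to 1.21. Aldh1a2 went the same way in both, with the lymph node difference the larger (1.26 against 4.39, interaction adjusted p = 1.5e-07), as its lymph node CD103+ mean was 2216 CPM. Ccr7 also went the same way (1.75 against 2.85, interaction adjusted p = 0.034, not called), with a mean of 11337 CPM in CD103+ DCs of the lymph node.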

How the data were processed

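RNA of CD11b+, CD103+ and double-positive DCs from lamina propria and lymph node of CD11a knockout mice was made into libraries with Smart-seq and sequenced, 3 libraries per group. The authors deposited raw read counts per gene, not normalised. The submitters' processing notes name STAR 2.6, FastQC 0.11.7 and the build GRCm38. For its own DC libraries the paper counts unique alignments with STAR and ignores strand, and no source says whether this holds for these libraries. Near-identical copies and overlapping genes are uncertain under such counting. Of 54232 identifiers, 54165 were matched to GENCODE vM21.

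Counts were TMM-normalised, filtered with filterByExpr over the 6 groups and tested with edgeR 4.0.16 (R 4.3.3), in a quasi-likelihood fit of all 18 libraries with a mean per group. Calls need an adjusted p under 0.01 and a fold over 2, the interaction an adjusted p under 0.01. Standard errors were derived from the F statistic. On simulated data with 200 genes changed 3-fold in this comparison (17074 genes), 184 (92%) were recovered with no false call. The block fit recovered 171 with 2 false calls, and DESeq2 195 with 7. Changed genes were not drawn from those of low level and no other gene differed between groups, so recovery of low genes was not measured.

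Named genes are Itgal, the sort genes, members of 34 lists, the 15 largest rises and falls (mean of at least 10 CPM, no overlap), the 10 smallest p and the 5 smallest interaction p. Members and lists were chosen with earlier results of these data known. List values are counts and medians without a test. Some named genes are not reported here. Same-numbered lamina propria libraries deviated together (CD11b+ with CD103+, correlations of 0.152 to 0.208 over 3 pairs), while in the lymph node these were 0.0319 to 0.0615, and the replicate number was used as a block in an alternative. No replicate pair agreed within sampling noise. The alternatives were DESeq2 1.42.0 and its size factors, total counts, other filters, thinned libraries, other thresholds, only the groups compared, the block and each library left out. Added after seeing the data was a fit of the 9 lamina propria libraries without the block.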

Additional observations from a re-analysis of the deposited data

Results flagged for a closer look

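Results were picked out here because the difference between CD103+ and CD11b+ DCs differed between lamina propria and lymph node by the interaction test of edgeR. This held for 4643 genes, and for 170 genes called in opposite directions in the 2 tissues. Among genes called in lamina propria, the 5 with the smallest interaction p were Lgmn, Tlr3, Il2rg, Cd82 and Xcr1.

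Lgmn, an endosomal asparaginyl protease, was 4.63-fold higher in CD11b+ DCs of lamina propria (mean 116 against 25.1 CPM) and higher in CD103+ DCs of the lymph node (122 against 692 CPM), a log2 difference between tissues of -4.71 ± 0.13. Tlr3 was 52.4-fold higher in CD103+ DCs of lamina propria, while its lymph node means were 22.2 CPM in CD11b+ and 8.65 CPM in CD103+ DCs, a difference of 7.07 ± 0.20. Its level in lymph node CD103+ DCs was thus below that in either subset of lamina propria. Il2rg had lymph node means of 389 and 337 CPM, with a difference between tissues of -3.44 ± 0.11. Cd82, a tetraspanin, was 2.05-fold higher in CD103+ DCs of lamina propria and lower in those of the lymph node (498 against 93.9 CPM), a difference of 3.44 ± 0.13. It lost its lamina propria call with total counts and without CD11b+ replicate 2. Xcr1 differed by 5.63 ± 0.21. The CD103+ sort is not described in the protocol for either tissue, and whether the gates hold the same cells in both was not tested.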

How the results depend on the processing

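The counts of genes kept within 1.5 times of their values under every alternative run (54 of 54 values). The lamina propria count of 2684 ranged from 2374 to 2567 with 1 library left out and from 2158 to 3410 over all alternatives. DESeq2 gave 2960, total counts without scaling 2725, the stricter filter of 100 counts in 3 libraries 2158, a test against a fold of 1.5 2323, thinned libraries 2644, and an adjusted p under 0.05 3410. The share higher in CD11b+ DCs was 65.0% to 71.2%. The lymph node count ranged from 3957 to 4194 and the interaction count from 4137 to 4366 with 1 library left out. With the replicate block, pairing libraries by number, the lamina propria count was 2468, of which 2312 were called without it, the lymph node count 4419 and the interaction count 4624. Without the block the same 9 libraries gave 2403, a fit added after seeing the data. Single genes were followed for 204 genes, which are not all list members. Among these the block ended the calls of Lrrc32, Tgfb3 and Tnfrsf4. A fit of only the groups compared ended those of Esam, H2-Eb2, Socs2 and the same 3, and total counts those of Cd82 and Lss. Other list members also lost calls, among them the plasmacytoid DC marker on the CD103+ side with the block. Total counts shifted the median log2 difference of all genes to -0.115 in lamina propria, -0.561 in lymph node and 0.353 for the interaction, from -0.043, -0.13 and -0.006. Of 476 list medians under an alternative, 43 moved by more than the spread between replicates, and 10, in 4 lists with medians near 0, turned sign. The Notch median of -0.18 was 0.09 with the stricter filter, 0.10 with only the groups compared and 0.06 with the block, the cell cycle median of 0.05 was -0.02 with total counts, that of integrins (-0.03) reached 0.06 and that of cholesterol and lipid handling (0.07) reached -0.07. The causes were not tested. Depth limits genes near the floor of 3 counts per library, and a list median moved by at most 0.48 when genes without a count in a subset were set to that floor over the group.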
